A study of Mus musculus with 12 samples.

Results

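Acetylation of histone H3 at lysine 27 (H3K27ac) was compared between E14 mouse embryonic stem (ES) cells treated with all-trans retinoic acid (RA) and control ES cells. The unit described is a genomic region: the control list and the RA list were joined wherever their peaks overlapped by at least 1 bp, which gave 22872 regions. Of these, 12554 (54.9%) were called in both lists, 1797 in the RA list only and 8521 in the control list only. Merging all 12 peak lists of the series gave 29064 regions. A region was called a promoter region when a peak of it lay within 1 kb of a transcription start site (TSS) and distal otherwise.

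In the series, chromatin immunoprecipitation followed by sequencing (ChIP-seq) located H3K27ac and the retinoid X receptor (RXR) in ES cells, and RXR also in the course of neural differentiation. The wild type E14 line was grown without feeder cells on gelatin, in serum medium with leukemia inhibitory factor. RA was given at 1 µM for 24 h, while the control library is labelled only as control and the treatment protocol names dimethylsulfoxide as the vehicle. The other H3K27ac libraries received GW3965, an agonist of the liver X receptor, or LG268, an RXR agonist, each at 1 µM for 24 h. Each treatment has 1 H3K27ac library, made with the same antibody, so no difference has a replicate check and no test between treatments was possible. A 95% interval (exact, Clopper-Pearson) on a share covers counting error only.

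H3K27ac is deposited by the acetyltransferases p300 and CBP and marks active promoters and enhancers. RA acts through the RA receptors (RAR), which sit on DNA as partners of RXR. Without ligand the pair recruits corepressors that keep histones deacetylated, and with ligand it recruits coactivators that acetylate them. In ES cells RA is known to induce its own receptor Rarb, the RA-degrading enzyme Cyp26a1 and the anterior Hox genes, and to drive exit from pluripotency.

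The control list holds 21418 peaks and the RA list 14958, with median widths of 392 and 388 bp. The read total of each library is not in the lists, so a difference in depth and a difference in acetylation cannot be told apart from the number of peaks. Peak scores are the authors' own, with a median of 8.22 in the control list and 7.81 in the RA list. Their scale between libraries is not stated, so a region called in both lists was compared by its score percentile among the 12554 shared regions. A change past 25 percentile points in either direction was called, which marked 10.3% of shared regions as higher with RA and 10.5% as lower. Of the 8 ES cell markers looked at, 7 were the nearest gene of a region in the control list and 5 in the RA list, with Zfp42 having none. The trophoblast markers Cdx2, Elf5, Gata3 and Hand1 had no region in either list, and 3 of 5 endoderm markers (Gata4, Gata6 and Sox7) had none either. The other endoderm markers, Foxa2 and Sox17, had a region in each list. Of 5 neural markers 4 had a region in the control list and 2 in the RA list, and of 4 mesoderm markers 2 and 1. These counts come from lists of unlike length. Of all genes with a region, 43.3% had one called in the control list only and 11.1% one called in the RA list only.

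The Rarb and Cyp26a1 promoters are printed because they held the DR5 matches found among the 59 of 96 RA pathway genes with a RefSeq promoter window. DR5 is a direct repeat of nuclear receptor half-sites with a spacing of 5 bases, the classical element of the RAR and RXR pair. The half-site searched was AGGTCA, its variant AGTTCA, the further variant GGGTCA or the last variant GGTTCA, on both strands. Each line gives the 250 bases before the RefSeq start, 5′ to 3′ on the gene's strand (RefSeq, GRCm38.p6), with the half-sites in capitals. The Rarb stretch is chr14:16575477-16575726 on the minus strand, and the Cyp26a1 stretch is chr19:37697558-37697807 on the plus strand.
Rarb: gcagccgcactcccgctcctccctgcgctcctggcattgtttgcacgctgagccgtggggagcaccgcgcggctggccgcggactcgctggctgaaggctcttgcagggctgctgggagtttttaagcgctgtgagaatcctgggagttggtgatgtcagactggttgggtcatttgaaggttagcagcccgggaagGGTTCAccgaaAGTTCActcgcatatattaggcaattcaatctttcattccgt
Cyp26a1: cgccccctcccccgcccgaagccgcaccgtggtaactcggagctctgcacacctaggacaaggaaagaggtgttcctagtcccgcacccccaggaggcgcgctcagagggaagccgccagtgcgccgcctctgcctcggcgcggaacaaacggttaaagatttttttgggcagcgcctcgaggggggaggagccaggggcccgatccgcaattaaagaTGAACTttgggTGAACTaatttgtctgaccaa

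The matches are given along their own strands, since the Cyp26a1 one lies on the strand opposite to the gene.
Rarb DR5: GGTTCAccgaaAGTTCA
Cyp26a1 DR5: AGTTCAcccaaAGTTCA
A DR5 match was present in 0.0975% of 32817 RefSeq promoter windows of 300 bases. It was present in 1 of 10155 windows with a shared region within 1 kb, that of Rarb. Of the 32 windows with a match, 28 had no region within 1 kb (0.138% of 20276 such windows). Among 272 windows with an RA-only region and no other within 1 kb, 2 had a match, and these are Cyp26a1 and its divergent neighbour Gm32342, which share the same bases. None of 1944 windows with a control-only region and no other had one, and the window of Syndig1 had a match with an RA-only and a control-only region.

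Rarb, the RA receptor whose own gene is an RA target, had H3K27ac peaks called on both sides of its start in the RA list and on one side in the control list. In the control list a single peak with a score of 6.99 lay downstream of the start, from 2 to 361 bp. In the RA list the downstream peak ran from 4 to 614 bp with a score of 11.02, and the shared region (chr14:16574862-16575474) moved up by 43.8 percentile points. A second RA peak, with a score of 6.44 and no counterpart in the control list, covered 452 to 124 bp before the start (chr14:16575600-16575928). The DR5 match, at 53 to 37 bp before the start, fell in the 125 bp gap between these regions. An RXR peak spanned that gap in both RXR lists, with a score of 33.0 in the control list (rank 52 of 1089) and 54.8 in the RA list (rank 27 of 1970).

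**Figure D1:**
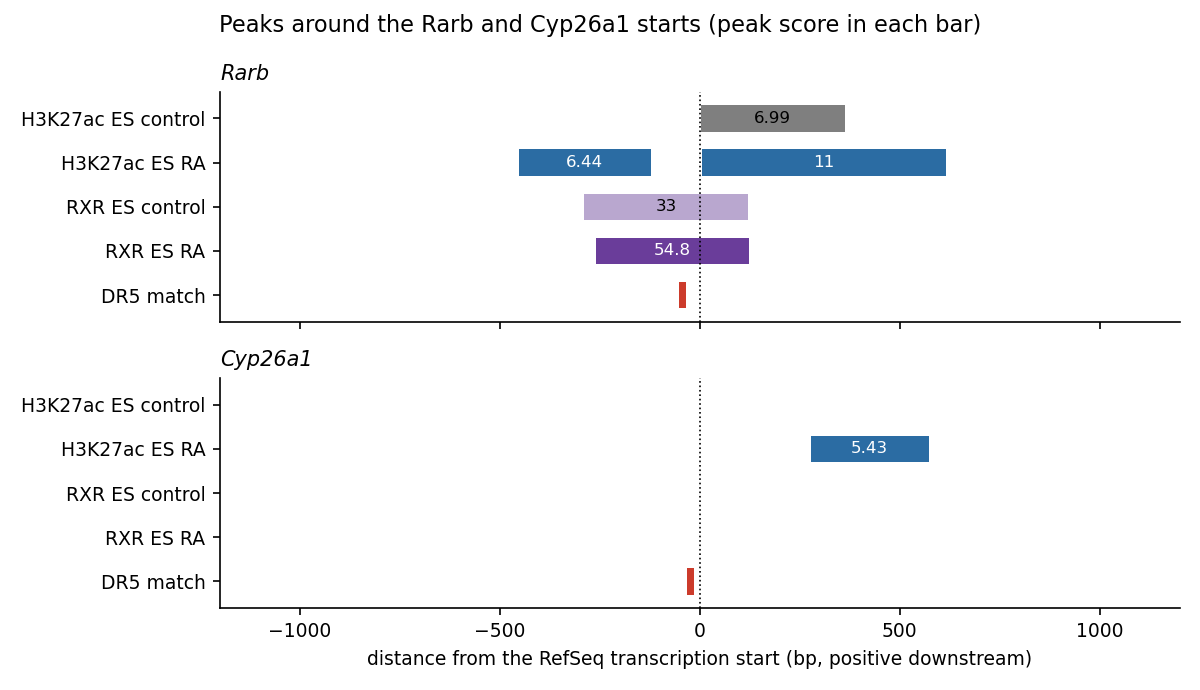
Peaks around the Rarb and Cyp26a1 starts, drawn as bars against the distance from the RefSeq transcription start (bp, positive downstream), 1 row per list, with the peak score in each bar and the DR5 match in red. At Rarb the RA list has peaks on both sides of the DR5 match and the RXR peaks cover it, and at Cyp26a1 the RA list has 1 peak (score 5.43) where the control list has none.

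Cyp26a1, the enzyme that degrades RA, had an RA-only promoter region (chr19:37698085-37698380, score 5.43) centred 424 bp downstream of its start. No control H3K27ac peak lay within 147407 bp of it, and neither RXR list had a peak within 1 kb of it. The related gene Cyp26b1 had a pair of RA-only distal regions, with scores of 2.75 and 3.44 at 46436 and 47522 bp before its start, and an RXR peak between them. A control-only distal region of Cyp26b1, with a score of 6.38, lay nearer, at 7599 bp before the start. The RXR peak had a score of 10.1 in the control list and 26.1 in the RA list. Dhrs3, a retinal reductase, had an RA-only distal region with a score of 3.55 located 57127 bp downstream of its start. Rdh11, another retinal reductase, moved up by 28.8 points at its promoter (7.31 in the control list, 8.73 in the RA list). Aldh1a2, which makes RA, and Crabp1, which binds it in the cytoplasm, each had 1 control-only distal region and none with RA. The other 10 of 16 genes of retinoid uptake and metabolism had no region in either list.

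Among the receptors, the rises were at Rarb, Rarg and Rxrg. The Rarg promoter region went from a score of 3.90 in the control list to 7.32 in the RA list (35.2 points), and an RA-only region with a score of 7.45 lay 1196 bp before the start. An RXR peak sat between these Rarg regions, with scores of 15.4 in the control list and 27.4 in the RA list. The Rxrg promoter region went from 4.38 to 8.98 (46.1 points). The shared promoter regions of Rara and Rxra moved by -4.6 and -4.3 points. Rara also had 4 control-only distal regions, with scores from 3.0 to 13.3. At Rxrb a control-only promoter region with a score of 20.3 lay 119 bp from the nearest RA peak, over an RXR peak of the RA list.

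The coregulators moved in both directions. The Ncor1 promoter, of a corepressor that unliganded RAR recruits, went from 33.2 in the control list to 9.95 in the RA list and moved down by 34.3 points. At the coactivator Ncoa2 a promoter region moved up by 39.6 points and a region 1226 bp downstream of the start moved by -17.6 points. Ncoa3 had an RA-only distal region (score 5.01) over an RXR peak of rank 57 in the control RXR list and rank 20 in the RA RXR list. Ncoa3 also had 2 control-only regions. The promoter of Ep300, which encodes p300, moved by -10.4 points.

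**Figure D2:**
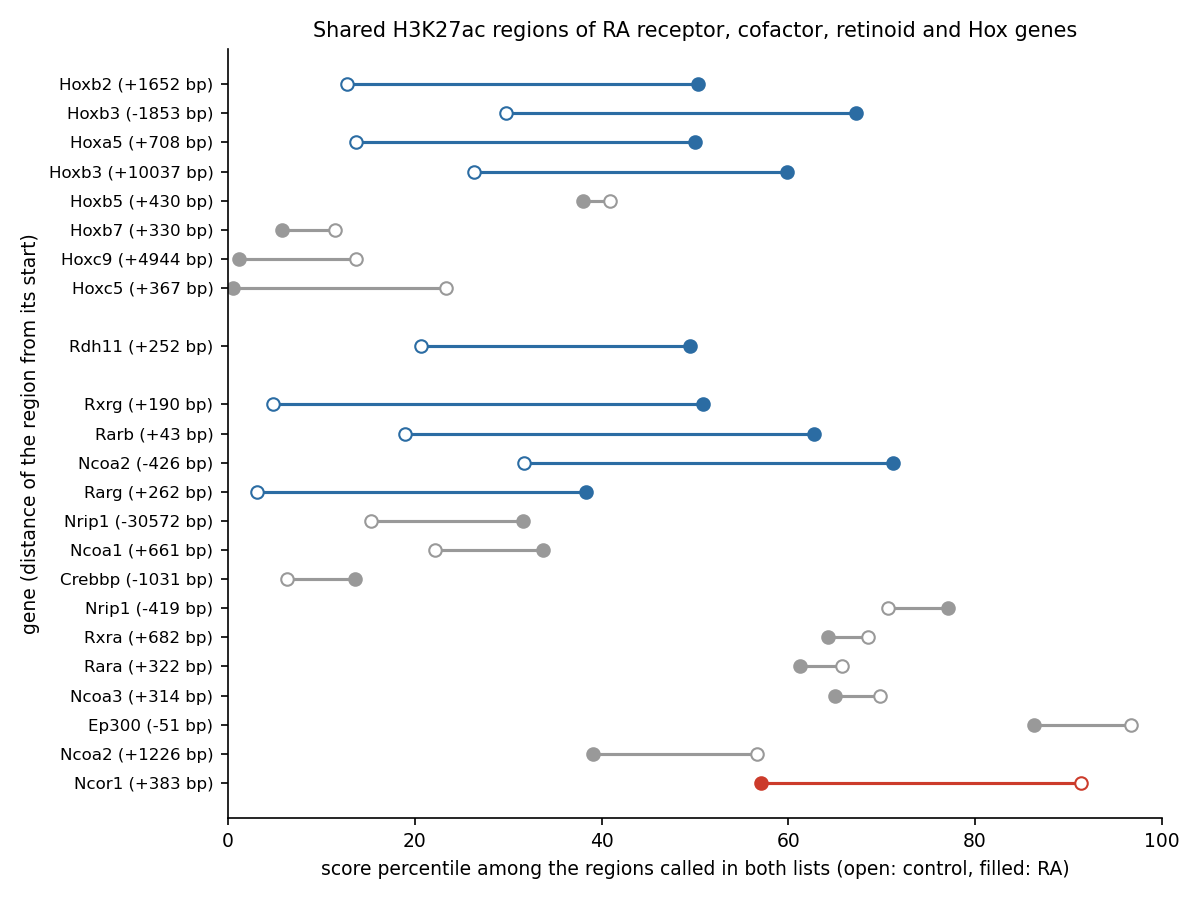
Score percentile among the 12554 shared regions (horizontal axis, 0 to 100) in the control list (open circles) and the RA list (filled circles) for the shared regions reported here of RA receptor and cofactor genes, Rdh11 and Hox genes. Lines are blue where the region moved up by over 25 points and red where it moved down by over 25. The blue lines are 4 Hox regions (at Hoxb2, Hoxb3 and Hoxa5), Rdh11 and the Rxrg, Rarb, Ncoa2 and Rarg promoters, and the red line is Ncor1.

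The Hox genes, which set position along the body axis and are induced by RA from the anterior end of each cluster, moved up at 5 of their shared regions. Of 39 Hox genes 15 had a region in either list, and 9 regions were called in both. Of these 9, 5 moved up (55.6%), beside 10.3% of all shared regions. All 9 lay below the median control score, where 18.5% of all shared regions moved up. Among the Hox regions that moved up were Hoxa5 (6.15 to 8.85, 36.3 points) and Hoxb2 (5.99 to 8.87, 37.5 points). At Hoxb3 a region 1853 bp before the start moved up by 37.5 points (9.06 to 12.0) and a region 10037 bp downstream by 33.5 points (8.42 to 10.5). Not past the 25 points were the regions at Hoxb5, Hoxb7, Hoxc5 and Hoxc9, which moved by -2.9, -5.7, -22.8 and -12.6 points. None of the 9 moved down past it, beside 5.93% of all shared regions below the median control score.

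RA-only regions were assigned to 4 of the 15 Hox genes (26.7%, beside 11.1% of all genes) and control-only regions to 10 (66.7%, beside 43.3%), with 6 RA-only and 10 control-only regions. At equal list length (the control list cut to the 14958 peaks of the RA list) each kind was at 5 of 14 (35.7%). Of all genes 20.9% had an RA-only and 24.6% a control-only region at that length. Hoxb1, the most anterior gene of its cluster with a known RA-response element, had an RA-only promoter region with a score of 5.22, and the nearest control peak was 11180 bp away. Hoxb1 was also the nearest gene of 1 control-only region. Hoxa2 had 2 RA-only distal regions, with scores of 5.26 and 3.69, the first overlapping an RXR peak that was in the RA list and not in the control list. Hoxc4 also had 2 distal ones, with scores of 3.71 and 5.13, the second within 1 kb of an RXR peak of rank 84 in the control list and rank 51 in the RA list. The Hoxb2 one, with a score of 4.26, lay 18 bp from a control-only region. Control-only promoter regions were at Hoxa2 (4.08), Hoxa4 (9.75), Hoxb9 (5.16) and Hoxd3 (9.21).

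Transcription factors known to respond to RA had RA-only regions at 10 of 22 genes with a region (45.5%, beside 11.1% of all genes with a region). Control-only regions were at 11 of the 22 (50%, beside 43.3% of all), and there were 17 of them against 11 RA-only ones. The highest were the promoter regions of Tshz1, a zinc finger protein of the teashirt family (8.0), and Stra8, the germ cell gene named for its induction by RA (7.39). Meis2, a cofactor of Hox proteins, had an RA-only distal region (6.31) over an RXR peak with a score of 23.4 that was in the RA RXR list and not in the control one. Meis2 also had 1 shared and 1 control-only region. Foxa1 had 2 RA-only distal regions (5.86 and 2.98), and no control peak lay within 284793 bp of either. Nr2f1, an orphan receptor of the COUP family, had an RA-only region (6.12) 10850 bp before its start, and its shared region 4226 bp before the start moved up by 28.0 points. Zfp703 moved up by 26.1 points at its promoter. Over this list 2 of 27 shared regions moved up (7.41%, beside 10.3% of all shared regions) and 0 moved down (beside 10.5%). Below the median control score 2 of 22 moved up (9.09%, beside 18.5% of all such regions). Nr2f2, the paralog of Nr2f1, went the other way, with 3 control-only regions (5.42 to 6.58) and no RA peak within 264671 bp.

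The 4 RA pathway lists were chosen with earlier results of these data known, so their shares are a description only. Over these lists, 57 of 96 genes had a region and 22 of them (38.6%) had an RA-only region, beside 11.1% of all 12902 genes with a region. A control-only region was present for 34 (59.6%), beside 43.3% of all. Counted by region, 27 of their 128 regions were RA-only (21.1%), beside 7.86% of all regions, and 48 were control-only (37.5%), beside 37.3%. Of their 53 shared regions, 12 moved up and 2 moved down. Regions that start low have more room to move up: of their 40 shared regions below the median control score 12 moved up (30.0%), beside 18.5% of all 6268 such regions. Of the 27 RA-only regions, 11 had an RXR peak of the RA list within 1 kb, beside 9.02% of all RA-only regions. The other classes of these genes also stood above their shares. Such a peak was near 11 of the 53 shared regions (beside 6.52% of all shared regions). It was near 6 of the 48 control-only regions (beside 3.31% of all control-only regions). Within 1 kb of a control H3K27ac peak lay 6 of the 27 RA-only regions, beside 40.4% of all RA-only regions. In the lists of the other ligands, 21 of the 27 were in neither, beside 64.1% of all.

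With the control list cut to its 14958 highest peaks, the length of the RA list, 28 of 54 RA pathway genes had an RA-only region (51.9%), beside 20.9% of all genes, and 20 had a control-only region (37.0%), beside 24.6%. The cut takes out control peaks with scores under 5.52. Of the 48 control-only regions of the RA pathway genes, 24 lay at or above that score.

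**Figure D3:**
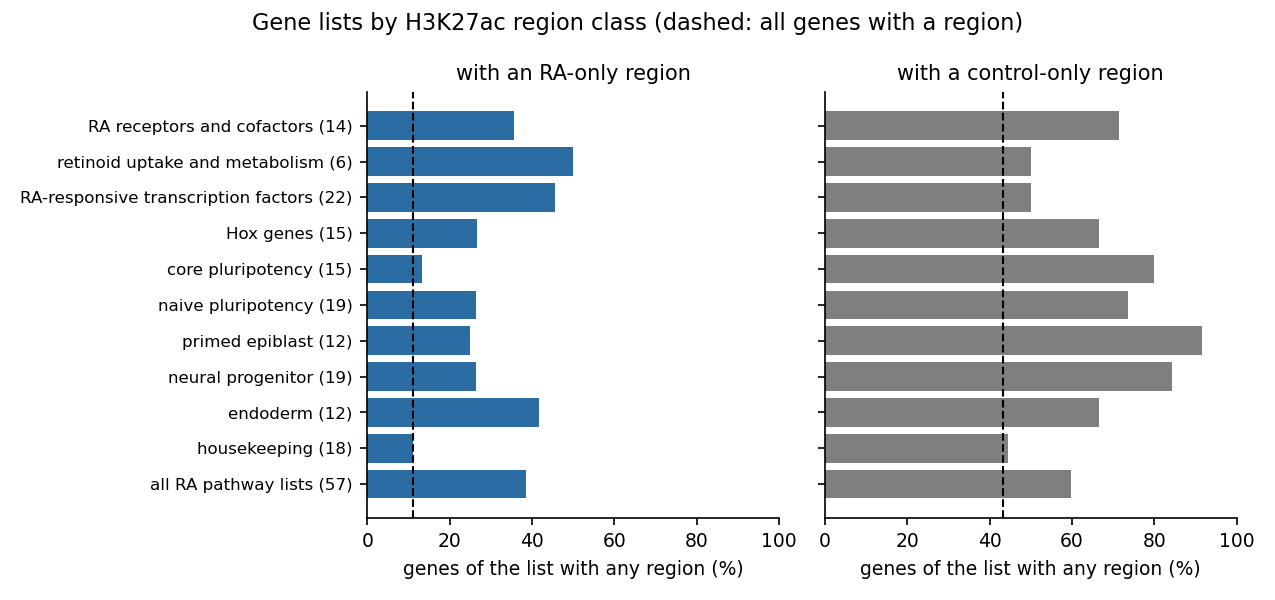
Share of the genes of each list that had an RA-only region (left, %) or a control-only region (right, %), out of the list's genes with any region (number in brackets). Dashed lines mark all genes with a region, at 11.1% and 43.3%; on the left every list drawn but housekeeping lies right of the line, endoderm (41.7%) included, and on the right primed epiblast genes reach 91.7%.

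Most core pluripotency genes had a control-only region. Of 15 core pluripotency genes with a region, 12 had a control-only region (80.0%, beside 43.3% of all genes) and 2 an RA-only one (13.3%, beside 11.1%). At equal list length these were 7 of 12 (58.3%, beside 24.6%) and 3 of 12 (25%, beside 20.9%). Pou5f1, the gene of OCT4, had 2 control-only regions with scores of 4.10 at the promoter and 3.36 at 1570 bp before the start, and no RA peak within 64663 bp of them. Fgf4 had 2 (6.52 and 5.34), Dnmt3b 2 (7.32 and 4.93) and Dppa4 1 (5.35). At Nanog a control-only region with a score of 10.0, 4719 bp before the start, lay 113 bp from an RA-only region with a score of 4.00. Scores at these control-only regions were low: 12 of the 20 lay under the 5.52 of the equal-length cut.

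Other pluripotency regions were called in both lists. Sox2 had 4: one 923 bp downstream of its start moved down by 27.6 points (12.2 to 5.16), one 14027 bp downstream moved up by 33.7 points (5.65 to 8.12), and the others moved by 10.0 and -12.2 points. L1td1 moved down by 29.0 points at its promoter (12.0 to 4.95). Sall4 and Trim28 changed by under 11 points at each of their shared regions. Of 19 naive genes with a region, 14 had a control-only one (73.7%, beside 43.3% of all genes) and 5 an RA-only one (26.3%, beside 11.1%). At equal list length these were 5 of 16 (31.25%, beside 24.6%) and 7 of 16 (43.75%, beside 20.9%). Klf2 and Nr0b1 had control-only promoter regions (5.87 and 4.19) and Esrrb 2 control-only distal ones (2.57 and 4.69). Klf4, Klf5 and Tet2 each had an RA-only region and no control-only one. Tbx3 moved up by 38.9 points (6.79 to 9.88), and Tfcp2l1 had an RA-only promoter region (4.79) and also 1 control-only region.

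Of 12 primed epiblast genes with a region, 11 had a control-only one (91.7%, beside 43.3% of all genes) and 3 an RA-only one (25%, beside 11.1%). At equal list length the control-only count was 5 of 8 (62.5%, beside 24.6%), and 16 of the 22 control-only regions scored under 5.52. The genes with one included Fgf5, a marker of the epiblast after implantation, with 3 (3.62 to 7.5), Otx2 with a promoter region of 8.35, and Zic2 with one of 10.7. Neural progenitor genes had control-only regions at 16 of 19 (84.2%, beside 43.3% of all genes) and RA-only regions at 5 (26.3%, beside 11.1%). At equal list length these were 13 of 18 (72.2%, beside 24.6%) and 8 of 18 (44.4%, beside 20.9%). Pax6 had a control-only region of 8.48 at the promoter and Hes1 had 3 control-only regions. None of the 20 shared neural regions moved up past 25 points (beside 10.3% of all shared regions), and 1 moved down (5%, beside 10.5%). Of 12 endoderm genes 5 had an RA-only region (41.7%, beside 11.1% of all), at Cxcr4, Foxa2, Lamb1, Lamc1 and Sox17. A control-only region was at 8 of the 12 (66.7%, beside 43.3% of all), with 14 such regions against 5 RA-only ones. With lists of equal length, 6 of 9 endoderm genes had an RA-only region (66.7%, beside 20.9%) and 4 a control-only one (44.4%, beside 24.6%). The shared promoter regions of Lama1 and Lamc1 moved down by 38.0 and 36.5 points. Sparc, a matrix protein of parietal endoderm, moved up by 35.0 points (7.44 to 9.87).

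Housekeeping genes were counted beside these lists. Of 18 such genes with a region, 2 had an RA-only (11.1%) and 8 a control-only region (44.4%), both near the share of all genes. Of their 36 shared regions, 2 moved up (5.56%, beside 10.3% of all shared regions) and 4 moved down (11.1%, beside 10.5%). Hprt moved down by 55.6 points (18.3 to 4.48) and B2m by 35.9 points. Ppia and Eef1a1, with 2 and 5 shared regions, each had a region that moved down, by 32.5 and 25.3 points. Gapdh moved up by 30.0 points at a region 478 bp before its start. The highest promoter peak of each gene was also ranked among genes with such a peak in both lists. By that rank Ppia and Eef1a1 moved by 5.83 and 1.02 points, and Gapdh by -21.7 points. The change at Hprt was larger than that at Rarb or Ncor1.

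Across all regions, those called in one list stood low in that list. The median RA-only region stood at percentile 17.4 of the RA list, and 5.18% were above its median. The median control-only region stood at percentile 25.4 of the control list, and 14.7% were above its median. Single-list regions were also narrower, with medians of 265 bp (RA only) and 281 bp (control only) against 562 bp for shared regions.

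Promoter regions made up 79.9% of shared regions (interval 79.2 to 80.6), 35.7% of RA-only regions (33.5 to 38.0) and 39.3% of control-only regions (38.2 to 40.3). With lists of equal length, 3129 regions were RA-only and 3552 control-only, with promoter shares of 42.6% (40.9 to 44.4) and 52.6% (50.9 to 54.2). Distal regions lay a median of 23606 bp from a start when shared, 31434 bp when RA-only and 32889 bp when control-only. Their peak was annotated to a CpG island for 23.1% of shared, 4.85% of RA-only and 6.13% of control-only distal regions. LINE elements, a family of retrotransposons, held 12.1%, 18.4% and 24.7%.

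**Figure D4:**
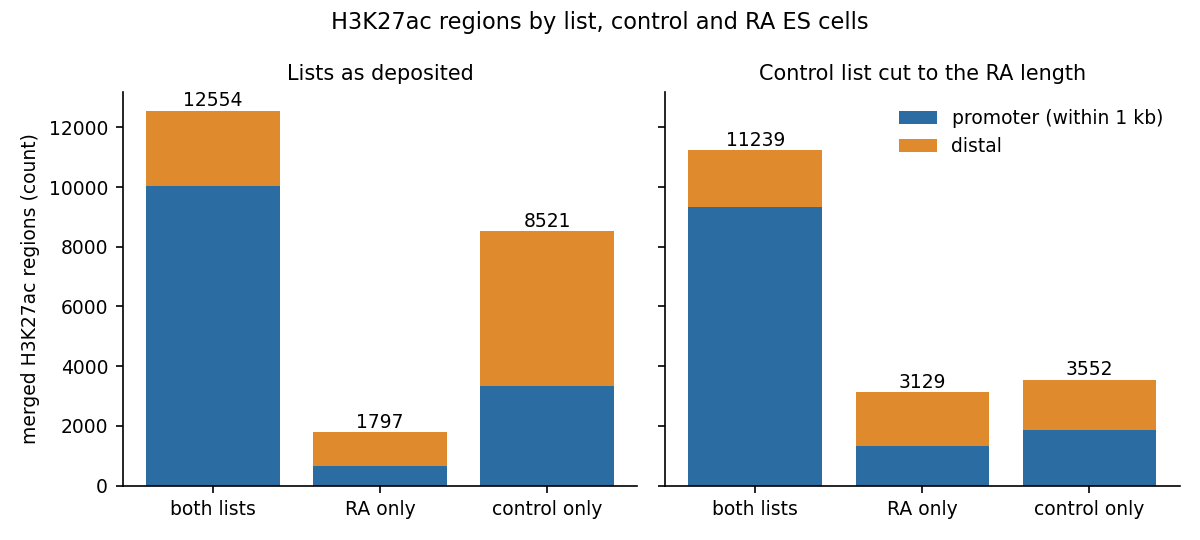
Number of merged H3K27ac regions called in both lists, in the RA list only and in the control list only (bars, promoter regions below and distal regions above), with the lists as deposited (left) and with the control list cut to the RA length (right). The control-only count falls from 8521 to 3552 and the RA-only count rises from 1797 to 3129 when the lists have 1 length.

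Whether a control peak was found again with RA followed its score. Of the highest score decile 99.9% overlapped an RA peak, and of the lowest decile 17.8%. Within the lower deciles, distal peaks were found less often than promoter peaks. In the fifth decile, with scores from 8.22 to 10.3, this was 56.0% of distal peaks (52.1 to 59.9) and 72.1% of promoter peaks (69.7 to 74.3). In the lowest decile it was 13.2% (11.6 to 15.1) and 28.7% (25.2 to 32.4). RA peaks were found in the control list in the same manner, down to 49.7% (46.2 to 53.2) of distal and 74.1% (70.6 to 77.3) of promoter peaks in the lowest decile.

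**Figure D5:**
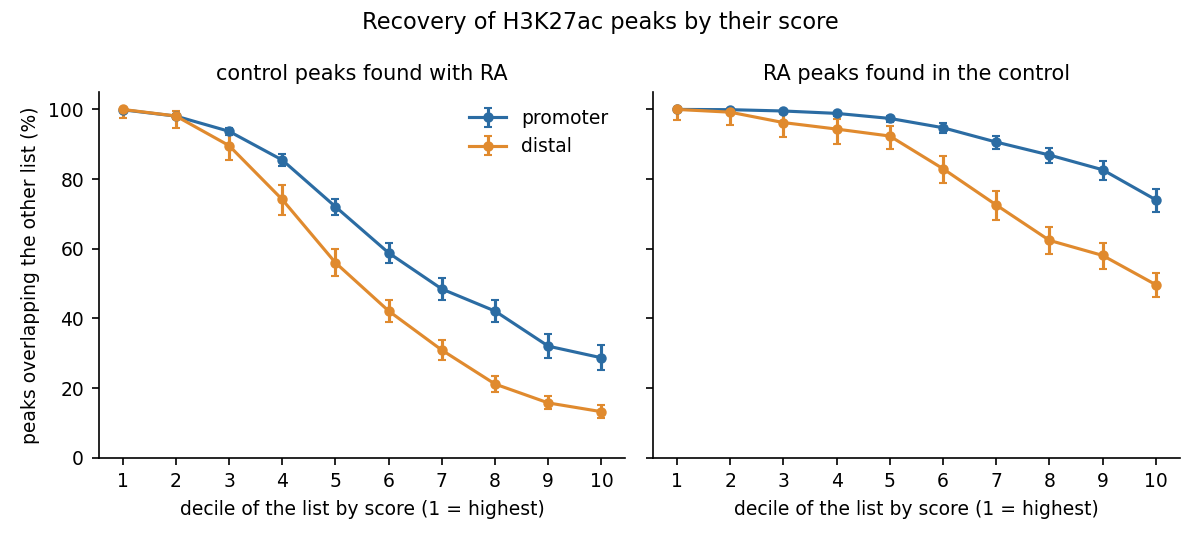
Share of peaks that overlapped a peak of the other list (%, vertical axis) by decile of the list's scores (1 is the highest), for control peaks found with RA (left) and RA peaks found in the control (right), with exact 95% intervals as error bars. Both curves start near 100% and fall with the score, with distal peaks (orange) under promoter peaks (blue) from the third decile on.

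Many single-list regions lay beside a peak of the other list. Of RA-only promoter regions 65.1% (61.3 to 68.8) were within 1 kb of a control peak, and of RA-only distal regions 26.7% (24.1 to 29.3). For control-only regions and RA peaks these were 45.7% (44.0 to 47.4) and 13.4% (12.5 to 14.3). Shared promoter regions were centred downstream of the start in 77.2%, control-only ones in 67.1% and RA-only ones in 60.0% (56.1 to 63.8). At 1068 genes with shared regions on both sides of one start, the changes had opposite signs at 54.2%, counting changes of any size. Past 25 points on both sides, 35 of these genes had opposite changes and 18 had changes in the same direction. Eml4, a microtubule-binding protein, is among the extremes in both directions: its region 385 bp before the start moved up by 67.9 points and that 182 bp after it moved down by 69.7 points.

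RXR peaks of the RA list overlapped 4.04% of shared (3.70 to 4.40), 4.56% of RA-only (3.65 to 5.63) and 1.30% of control-only regions (1.07 to 1.57). The control-only share was the lowest of the classes also with equal lengths, at 2.00%, beside 3.36% of RA-only and 4.29% of shared regions. At distal regions the shares were 6.19%, 5.89% and 1.39%. RXR peaks called with RA and not in the control overlapped 2.10% of shared, 1.84% of RA-only and 0.739% of control-only regions.

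Shared distal regions with an RXR peak moved up more often than those without where the control score was low. Below the median control score, 36 of 103 distal regions with an RXR peak of the RA list moved up (35.0%, interval 25.8 to 45.0), against 14.9% of 1857 without one (13.3 to 16.6). For RXR peaks already in the control list this was 30 of 81 (37.0%, 26.6 to 48.5). Above the median it was 2 of 53 with an RXR peak of the RA list (3.77%) and 3.67% without one. Distal regions with an RXR peak called with RA and not in the control moved up at 7 of 53 over all scores (13.2%), near the 12.5% of those without RXR. At promoters below that median it was 27 of 107 (25.2%, 17.3 to 34.6), against 19.5% of 4187 without RXR (18.3 to 20.8). Over all scores, 13.2% of distal and 9.60% of promoter regions moved up. Below the median control score the order was the other way, with 15.9% (14.3 to 17.6) of distal and 19.7% (18.5 to 20.9) of promoter regions. The split does not match the groups on control score. Below the median, distal and promoter regions stood at median control percentiles of 17.6 and 28.6. Distal regions with an RXR peak of the RA list and those without RXR stood at 27.1 and 17.2.

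The GW3965 and LG268 lists were compared with the same control, so their overlap with these classes is a description. Of shared regions 89.9% were in the GW3965 list and 76.6% in the LG268 list. Of RA-only regions 30.8% and 12.7% were, and 64.1% (61.8 to 66.3) were in neither. Of control-only regions 37.9% and 15.97% were, and 56.8% (55.7 to 57.8) were in neither. These lists hold 17759 and 12472 peaks, and read totals are not known for them either.

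By score, the highest RA-only promoter region was at 1110001J03Rik (18.2, chr6:38534747-38535268), with no control peak within 16887 bp. It was followed by Nr6a1, the germ cell nuclear factor that represses Pou5f1 when ES cells differentiate (14.2, 322 bp from a control peak), 4732415M23Rik (13.6) and Naa35 (13.5). Of the 10 highest, Met, the receptor of hepatocyte growth factor (10.6), was the farthest from a control peak, at 172817 bp. The highest RA-only distal regions were near Ankrd28 (12.8), Spt1 (12.2, over an RXR peak in both lists) and Fbrs (11.03).

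The highest control-only promoter regions were at Rabgap1 (26.97), Map2k4 (26.5), Dag1 (25.5) and Dusp16 (25.1), and an RA peak lay within 570 bp of each. Of the 10 highest, Ccdc102a (23.9) and Lipo1 (22.5) were the farthest from an RA peak, at 59686 and 171310 bp. Distal ones were near Ccr1 (19.3), Gm10413 (18.4) and Nfatc2 (17.7). Tgif1, a homeodomain repressor that acts in RA and TGF-beta signalling, had the most control-only regions of any gene, 12, beside 3 shared ones and 1 RA-only.

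Among shared promoter regions the largest rises were at Tmem106c (5.08 to 16.2, 73.5 points), Fam188b (6.54 to 20.5, 73.3 points) and Lrif1 (4.38 to 14.2, 71.1 points). Por, the reductase that supplies electrons to cytochrome P450 enzymes such as CYP26, rose by 66.8 points (6.79 to 17.5) over an RXR peak in both lists, and Carm1, a coactivator arginine methyltransferase of nuclear receptors, by 64.8 points. The largest falls were at Cstf2 (25.6 to 3.79, 76.6 points down) and Mnf1 (23.4 to 3.29, 75.9 points down). Cdh1, the gene of E-cadherin, moved down by 71.4 points (23.7 to 4.07). Among distal regions, one 6167 bp before Jund, over an RXR peak of the RA list, moved up most (4.65 to 16.6, 76.6 points), and one 90858 bp before Nrg1 moved down most (26.1 to 4.26, 73.7 points).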

How the data were processed

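H3K27ac was mapped by ChIP-seq in 1 control and 1 RA library. The deposited lists give each peak a score, made by the authors on a scale not stated between libraries, and a signed distance in bp to the nearest gene start. BWA 0.6.0, MACS2 2.0.10 and HOMER 4.2 are listed without roles in the submitters' processing notes, as are the builds mm10 and mm9, and per the file headers peaks were annotated against mm10. As a check, the annotated start lay within 10 bp of a GRCm38.p6 RefSeq start for 62.9% of control promoter peaks. Of the peak numbers up to the highest in each list, 3.61% are absent from the control list and 4.26% from the RA list. The step that left these gaps is not given in the sources used here. Depth per library is unknown.

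Both lists were merged at 1 bp overlap. A region's score is that of its highest peak in each list. A gene had a region when the lists named it nearest within 100 kb. Exact binomial 95% intervals were computed, and no test was run. The members and gene lists were chosen with earlier results of these data known. Named are the 10 highest or most changed regions of each kind outside repeats, from which the text takes the leading ones, and members of the lists; some members are counted but not reported here by name. The merge was tested on simulated lists. Alternatives were lists of equal length, the lowest 25% of peaks left out, 50% reciprocal overlap, peaks within 1 kb merged, repeats left out, promoters at 5 kb or 500 bp, calls at 15 or 40 points, summed scores and gene windows of 10 kb or no limit. The 10000 or 5000 highest peaks and the split at the median control score were added after the data were seen. Mesoderm and trophoblast lists had 5 and 3 genes with a region, of which 1 and 0 had an RA-only and 3 and 2 a control-only region. Work was done in Python 3.11.15 with pandas 2.3.3, numpy 2.4.6, scipy 1.17.1 and matplotlib 3.10.9.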

Additional observations from a re-analysis of the deposited data

How the results depend on the processing

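With the control list cut to the RA length, 3129 regions were RA-only and 3552 control-only. Promoter shares were 83.1% (shared), 42.6% (RA-only) and 52.6% (control-only). RXR shares were 3.36% of RA-only and 2.00% of control-only regions, and 29.2% of RA-only and 33.2% of control-only regions lay within 1 kb of a peak of the other list. A control-only region was at 20 of 54 RA pathway genes (37.0%, beside 24.6% of all genes). Without the lowest 25% of peaks, 1043 regions were RA-only, promoter shares were 85.4%, 50.1% and 53.3%, and RXR shares were 4.59% (shared) and 1.87% (control-only). At 50% reciprocal overlap, 4105 were RA-only, promoter shares were 81.7%, 55.4% and 45.0%, which puts RA-only above control-only, and RXR shares were 3.48% (RA-only) and 1.58% (control-only). Merging peaks within 1 kb left 1052 RA-only regions, with promoter shares of 78.4%, 21.0% and 28.1% and RXR at 5.19% of shared regions, and without repeats RXR was at 3.63% of shared regions. Promoter shares were 83.8%, 44.0% and 46.3% at 5 kb and 70.2%, 24.9% and 30.3% at 500 bp.

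A call past 15 points gave 2610 higher and 2572 lower regions, and one past 40 points 350 and 386. Genes within 10 kb gave 14 RA pathway genes with an RA-only and 22 with a control-only region, of 53 with any region. Of all genes, 899 had an RA-only and 3883 a control-only region within 10 kb. The 10000 highest peaks gave 7804 shared and 2129 control-only regions, promoter shares of 89.2%, 64.1% and 74.3%, RXR at 4.77% of shared and 2.49% of control-only regions, and 13 RA pathway genes with a control-only region. The 5000 highest gave 3746 shared, 1195 RA-only and 1236 control-only regions, promoter shares of 93.0%, 84.4% and 90.6%, 553 higher and 561 lower regions, RXR at 5.26%, 6.61% and 2.91%, and 7 RA pathway genes with an RA-only against 4 with a control-only region. For the 10000 and 5000 highest peaks the RA pathway gene counts stand without the share over all genes, so they show neither an excess nor a reversal. With all 4 lists cut to 12472 peaks, 90.5% of shared regions were found with GW3965 and 87.4% with LG268, 30.9% of RA-only regions with LG268, and 44.5% and 35.6% of control-only regions with GW3965 and LG268.

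Control-only regions had the lowest RXR share in each of these settings, whereas the order of RA-only and shared regions changed. The settings that shorten lists or change the promoter window move the values by construction, and the cause of the other moves was not tested. No paired analysis was possible because each group has 1 library. For a peak missing from a list, depth and acetylation cannot be told apart.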
